A study of Drosophila melanogaster with 12 samples.

Results

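Gene expression in γ neurons of the Drosophila melanogaster brain was compared between 12 and 18 h after puparium formation, the interval in which these neurons prune their axons. The members are the 6457 of 17050 genes in the deposited table whose value reached 50 or more in 3 or more of the 6 libraries, namely replicates A, B and C of 12 h and of 18 h (n = 3 each). The labelled genotype of every library was heterozygous for a y,w chromosome and for UAS-RedStinger, with 71G10 over UAS-HR51 RNAi. The 71G10 driver thus turned on both the red nuclear marker and RNA interference directed at the nuclear receptor gene Hr51, in the same cells and at both times. Males and females were mixed and reared at 25 °C, and 1000 DsRed-positive cells were sorted from dissociated brains for each library. No library of another genotype was analysed here, and all differences below are between times in Hr51 RNAi neurons. Whether A, B and C were separate dissections is not in the labels, so p-values measure the spread between these libraries, which may be technical.

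γ neurons of the mushroom body, the olfactory memory centre of the fly brain, lose their larval axon branches and dendrites early in metamorphosis and later grow adult branches. The steroid ecdysone starts pruning through its receptor, EcR with its partner usp. TGF-β signalling through babo, put, wit, Smox and plum raises EcR, and Sox14 acts below EcR to switch on effectors such as Mical. Hr51, also called unfulfilled, promotes regrowth. Cell-surface proteins of the immunoglobulin families Dpr, DIP and Beat help axons find their partners.

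Values are reads scaled to 10000000 mapped reads. The 6 libraries held 1852941 to 3002726 mapped reads, so that 1 read was worth 3.3 to 5.4 units and a value of 50 stood for 9.26 to 15 reads. Counting error is therefore large near the filter and small for strongly expressed genes. Kenyon cell markers were all members (11 of 11), with a summed value of 117800 to 125400 at 12 h and 115700 to 118600 at 18 h. Of the 11, 3 (27.3%) were lower at 18 h without overlap between the libraries of the 2 times, and none was higher. The shares of all genes were 5.73% lower and 7.93% higher. The median log2 change of the 11 was -0.21. Of 14 glial genes 2 were members, and the list summed to 3281 to 4213 at 12 h and 2719 to 4288 at 18 h. Repo, moody and alrm, which define glia, had 0 reads in 4 or 5 of the 6 libraries. Moody had reads in A alone (76.6 at 12 h and 95.4 at 18 h), and repo stood at 93.2 in 12 h A and 13.4 in 12 h B. Eaat1 reached 124 in 12 h C and Gs2 80.3 in 12 h B. Of 11 blood cell genes 6 were at 0 in all 6 libraries, Hml, NimC1, He and srp among them, and 2 (crq and Pxn) were members, with list sums of 73.7 to 519. Of 14 muscle genes 3 (Mhc, Mlc1 and Act79B) were at 0 and 3 (Mef2, bt and Tm1) were members, with sums of 11500.0 to 16460.0, and Mef2, which Kenyon cells also express, gave the most. Of 16 photoreceptor genes 9 were at 0, ninaE and Rh3 among them, and norpA carried most of the sums of 2581 to 4134. VGAT, a vesicular GABA transporter gene, stood between 406 and 907 in all 6 libraries, while Gad1 reached at most 60.7. Sums over 2 lists did not overlap between the times. Osiris and cuticle genes, of which Osi24 was the 1 member, summed to 1824 to 5092 at 12 h and 1143 to 1375 at 18 h. The fat body list summed to 269.8 to 416 at 12 h and 9.89 to 42.2 at 18 h. Its 1 member was Lsp1gamma, a larval serum protein gene, with 117 reads at 12 h and 1 read at 18 h. Lsp1gamma passed the filter only through its 12 h libraries, so its choice as a member favours this difference, which is a description only. Lsp2 added 161 in 12 h B alone. Genes of neuroblasts and dividing cells summed to 1705, 1114 and 1732 in A, B and C at 12 h and to 1362, 839.7 and 732 at 18 h, lower in every letter but with overlap. The part of RNA from such other cells in the results below was not tested.

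The closest library to most of the 6 was of another time. Over all members, the log2 values of the 12 h A library correlated best with a 6 h library (replicate B, r = 0.88), ahead of 12 h B (0.84) and 12 h C (0.81). The 18 h A library correlated best with 12 h B (0.84), ahead of 18 h B (0.83) and 18 h C (0.79). Over all members A was no farther from B than C was, since B and C correlated at 0.84 at 12 h and 0.82 at 18 h. Closeness across times was not confined to A, since 18 h B correlated best with 6 h A (0.89), 12 h B with 24 h B (0.86) and 18 h C with 24 h C (0.83). Only 12 h C had its closest library, 12 h B (0.84), within its own time. These r are across genes, which are not independent replicates, and all libraries share the same genes. Labels were kept as given, and whether a library of A carries the label of another time was not tested. Every value of A, and the fit over all libraries, which also holds 6 h A, rests on those labels.

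The step from 12 to 18 h was weakly shared between the letters. The log2 change of each gene correlated across genes at 0.15 between A and B, at 0.05 between A and C and at 0.13 between B and C. Over the 1815 genes with a mean value of at least 1000 these were 0.37, 0.26 and 0.40, so the letters came closer to each other among genes with many reads. A change of at least 1 on the log2 scale was reached by 30.5% of genes in A, 22.8% in B and 31.3% in C. In B and C together, 467 genes changed by at least 1 in the same direction. Replicate A also did so for 159 of them (34.0%) and moved by at least 1 the other way for 100 (21.4%). By the same count C followed A and B in 35.9% of 443 genes and opposed them in 20.99%. B followed A and C in 32.2% of 494 genes and opposed them in 12.4%. Replicate A thus matched the direction of the step in B and C about as often as each of those matched the remaining pair, although the match was poor for every letter. The 159 genes that moved by at least 1 in the same direction in all letters were 69 higher and 90 lower at 18 h.

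**Figure D1:**
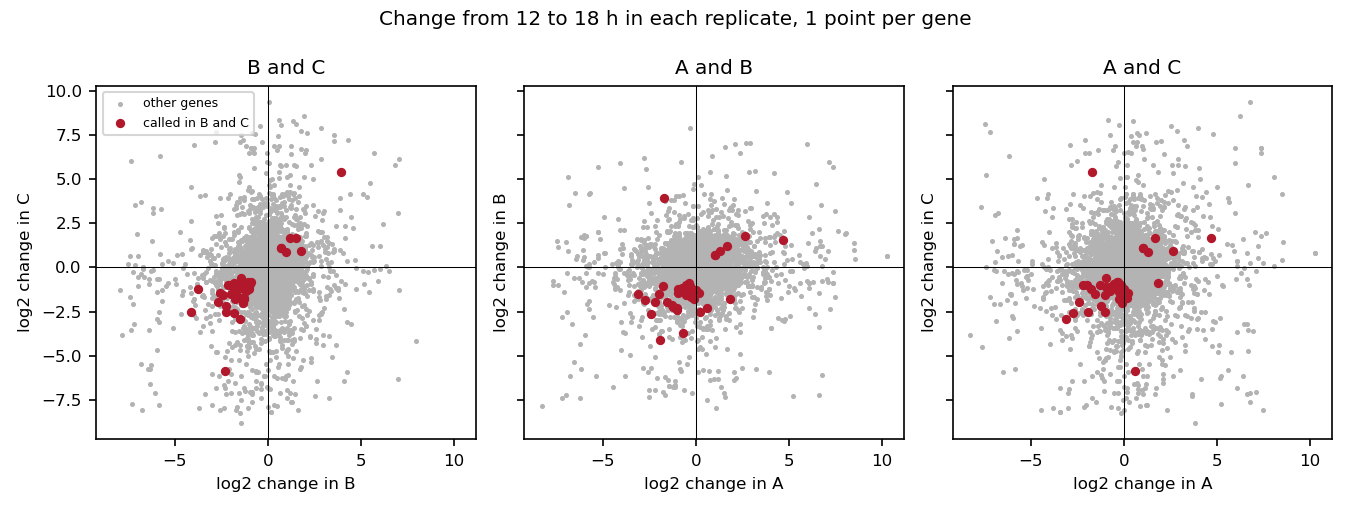
Log2 change from 12 to 18 h in 1 replicate (x axis) against another (y axis), 1 point per gene for 6457 genes; red points are the 42 genes called in replicates B and C. The grey clouds are nearly round (r = 0.13 for B and C, 0.15 for A and B, 0.05 for A and C), and most red points lie below 0 in all 3 replicates.

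With all libraries in the fit, no single gene passed the test between 12 and 18 h. A limma model of log2(value + 1), fitted to all 12 libraries with a mean for each time, called 0 of 6457 genes (0.0%) at an adjusted p under 0.05. At an unadjusted p under 0.05 it found 388 genes (6.01%), 197 higher (3.05%) and 191 lower (2.96%). On the recovered reads edgeR also called 0 and DESeq2 called 6 (3 higher, 3 lower). Leaving out 12 h B gave 1 call, CR45224, and leaving out any other library gave 0. The comparison of ranges needs no model: for 882 genes (13.7%) the 3 libraries of 18 h did not overlap the 3 of 12 h, 512 of them higher (7.93%) and 370 lower (5.73%). The filter used the same 6 libraries, so a gene that passed it only through the libraries of 1 time was free of overlap by that choice. Such genes were not counted apart. Of the 882 genes, 178 also had a log2 difference of at least 1 and a mean value of at least 200, 90 higher and 88 lower. Because RNA was measured in bulk from sorted cells, a lower value cannot be told apart between fewer cells that express a gene and less RNA per cell. None of the genes in this set passed the adjusted test over all libraries, and their values are given as such.

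Among the genes with the largest lower values at 18 h without overlap was Hr46, also called Hr3, a nuclear receptor of the prepupal ecdysone cascade (chr2R:10203995-10237348, minus strand, build dm6 as for all coordinates here). Hr46 stood at 1619, 425 and 189 at 12 h in A, B and C and at 34.7, 59.1 and 103.9 at 18 h. The 12 h A library was by far the highest of the 6, and C showed the smallest difference (-5.50, -2.83 and -0.86 on the log2 scale). The mean log2 difference over all libraries was -3.06 ± 1.05 (SE; unadjusted p = 0.0103, adjusted p = 0.772 by limma). CG12912 lies within Hr46 on the same strand, with 583 reads over the 6 libraries against 691 for Hr46, so these 2 cannot be told apart. Ac13E, an adenylyl cyclase gene, and Ndae1, a sodium-driven anion exchanger gene, were in this set too and are described with the calls below. Ho, the heme oxygenase gene, was even at 12 h (829, 857 and 826) and spread at 18 h (616, 189.9 and 29.7), where A was closest to 12 h. PIP4K, a phosphatidylinositol phosphate kinase gene, stood at 446, 743 and 1322 at 12 h and 395, 350.2 and 39.6 at 18 h. The log2 changes of PIP4K were -0.18, -1.08 and -5.03, smallest in A and largest in C. CG7009, a tRNA methyltransferase gene named Trm7-34 in the annotation, had the same order of letters, at 253, 338 and 416 and then 221, 84.4 and 9.89. The other 5 were CG8034, CG11791, CG3961 and the pair stg1 and CG11566, which held identical reads in all 6 libraries. CG8034 was at 789, 211 and 329 and then 17.3, 97.0 and 134, CG11791 at 1026, 612 and 702 and then 525, 75.9 and 153. CG3961 was even across letters, with log2 changes of -2.40, -1.84 and -1.84. Stg1, a stargazin-like gene, stood at 666, 244 and 178 at 12 h and at 165, 16.9 and 94.0 at 18 h, with A the highest library at both times.

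The largest higher values without overlap included several genes that, of the 6 libraries, were near 0 in 12 h A alone. At 6 h, Lkr and CR44844 were also at 0 in B and C, and CG13245 was at 2.67 and 0. SlgA was at 5.33 and 131 in 6 h B and C, and CR45224 at 125 and 37.6. Lkr, the receptor for the neuropeptide leucokinin (chr3L:5512421-5529341, minus strand), stood at 9.99, 371 and 826 at 12 h and at 1058, 1667 and 1464 at 18 h. The 12 h A value was about 3 reads, and the step in Lkr was 6.59, 2.16 and 0.83 on the log2 scale, with A above the others and a mean of 3.19 ± 2.18. Rbp9, a neuronal RNA-binding protein gene of the ELAV family, stood at 79.9, 1011 and 853 and then 1271, 3388 and 2869, with all letters up by at least 1.74. SlgA, the proline dehydrogenase gene, stood at 30.0, 485 and 691 at 12 h and at an even 1049, 1186 and 1128 at 18 h. CG13245 and CG43816 lie within beat-Ic on the same strand and hold nearly the same reads. CG13245 was at 0, 893 and 1106 and then 1209.9, 1409 and 1959, a step of 0.66 in B and 0.82 in C against a 12 h A library at 0. CR44844, also within beat-Ic, was likewise at 0 in 12 h A and at 204 and 157 in B and C, and then at 377, 287 and 420.4. By contrast beat-Va, an immunoglobulin protein gene of the Beat family (chr3R:12840560-12848419, minus strand), was low in all libraries of 12 h (49.95, 103.7 and 32.4) and high in all of 18 h (854, 553 and 1083). Its mean difference was 3.83 ± 1.66 over all libraries and 3.71 ± 1.07 in B and C, with adjusted p = 0.173 in B and C. CG8545, CG31637, CG17364, msd5 and the noncoding CR45224 completed the set. Log2 differences in A, B and C were 2.17, 3.03 and 1.72 for CG8545. They were 2.51, 1.18 and 4.307 for CG31637, 3.73, 1.66 and 4.56 for CG17364 and 6.65, 1.21 and 4.68 for CR45224. Msd5, a mitotic spindle gene, was at 6.66, 110.4 and 75.6 and then 199, 468 and 391.

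When replicates B and C were fitted without A, the interval was marked mostly by falling genes: 42 genes were called (0.65% of 6457), 35 lower (0.542%) and 7 higher (0.108%) at 18 h. At an unadjusted p under 0.05 there were 633 (9.8%). This fit held the 8 libraries of B and C, so 12 and 18 h had 2 libraries each. Values of B and C did not overlap between the times for any of the 42. The choice of genes by these same libraries favours that, so it is a description only. The count rested on single libraries. It was 6 without 12 h B, 1 without 12 h C, 26 without 18 h C and 22 without 24 h C, where the lone library left at that time was taken to vary like the rest. Of the 42 calls, 2, 1, 17 and 22 were then kept, and without 18 h B 12 were kept among 39. On the recovered reads edgeR called 53 and DESeq2 126, and with no filter on low values limma called 2. With median-ratio scaling it called 28, of which 1 was higher and 27 lower.

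**Figure D2:**
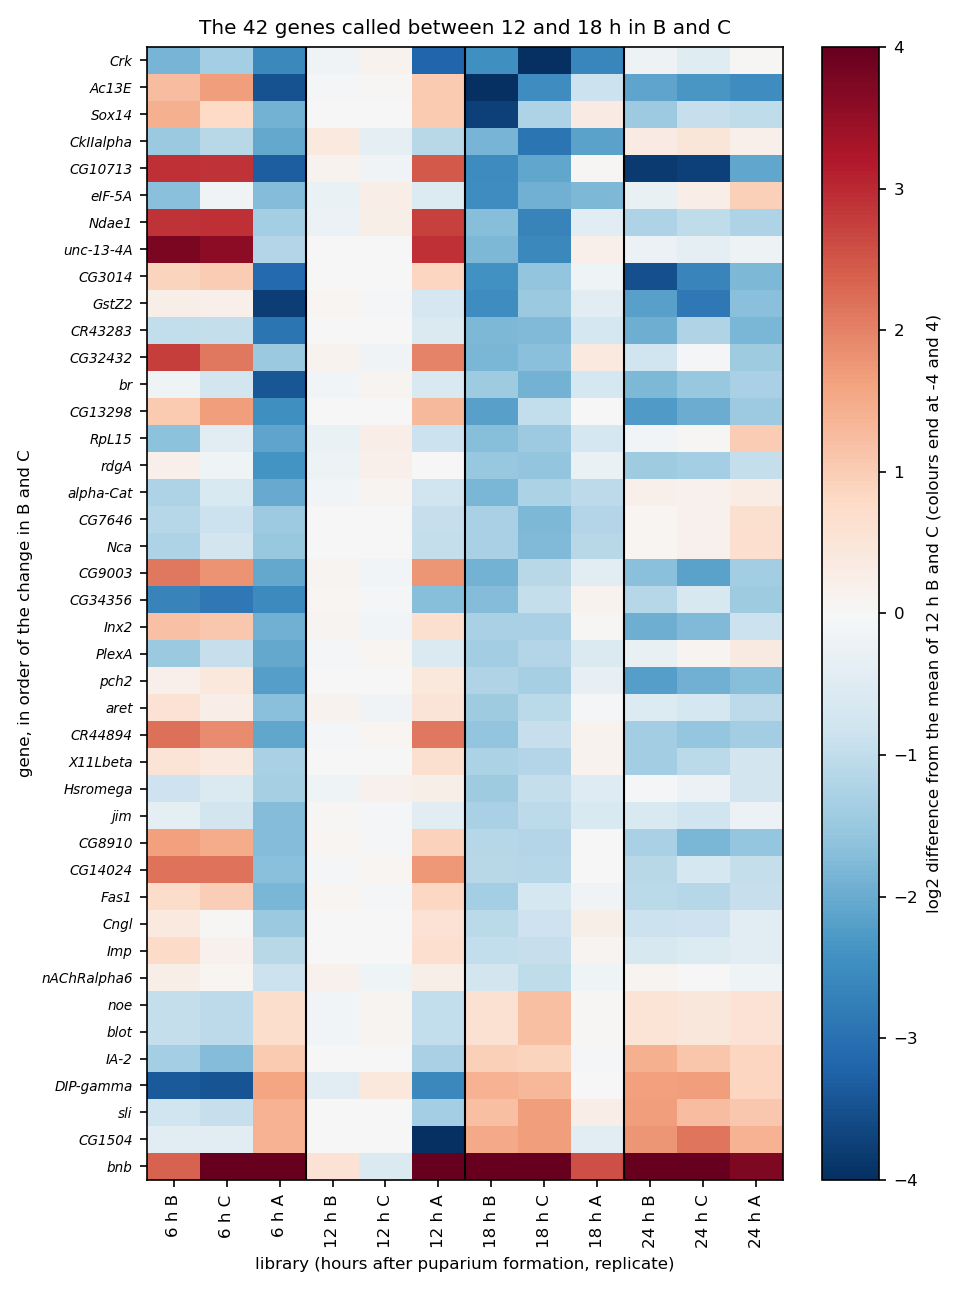
Log2 difference of each library from the mean of 12 h B and C (colour, ending at -4 and 4) for the 42 genes called in B and C; libraries are columns, with A last at each time. The 35 upper genes are blue at 18 h in B and C, the 18 h A column is nearer to the 12 h level than both for 40 of 42 genes, and the 12 h A column is nearest to 6 h B and C for 35.

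In these genes replicate A mostly shared the direction of B and C but not their level. It moved in the called direction for 37 of the 42 genes (31 lower, 6 higher), by at least 1 for 18, and all 3 libraries of each time stayed apart for 19. Over all members, B and C shared a sign in 55.3% of genes and all 3 letters in 32.6%. Replicate A changed by at least 1, in either direction, in 30.5% of members, and 13.7% were free of overlap. The choice of the 42 genes by B and C favours the count of 19. In level, however, the 18 h A library lay on the 12 h side of both 18 h B and 18 h C for 40 of 42. The 18 h A library was nearest to the 12 h mean of B and C for 27 genes, to the 6 h mean for 12, to the 18 h mean for 2 and to the 24 h mean for 1. Its median distance was 0.30 to the 12 h mean and 1.15 to the 18 h mean on the log2 scale. The 12 h A library was nearest to the 6 h mean for 35 genes and to the 12 h mean for 3, with median distances of 0.20 and 0.95. The 42 genes were chosen for a wide gap between 12 and 18 h in B and C. That choice by itself favours an 18 h A value on the 12 h side, so these counts are a description with no test.

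**Figure D3:**
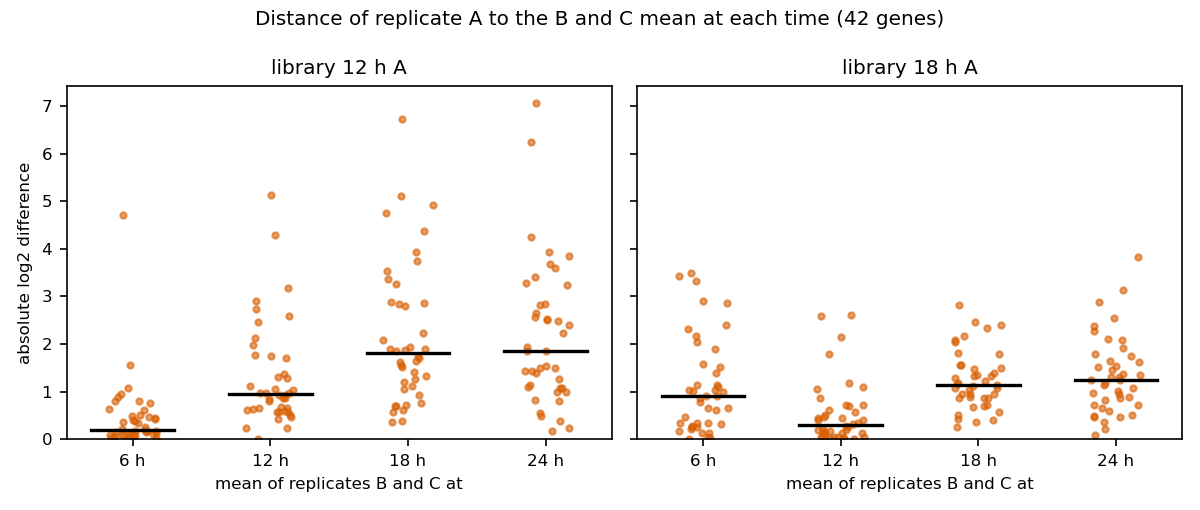
Absolute log2 difference (y axis) of the 12 h A library (left) and the 18 h A library (right) from the mean of B and C at 6, 12, 18 and 24 h (x axis), 1 point per gene for the 42 called genes, with bars at the medians. The lowest median is at 6 h for 12 h A (0.20) and at 12 h for 18 h A (0.30).

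Transcription factors of the ecdysone cascade were among the falling genes. Sox14, the SOX-family factor that acts below EcR in γ neuron pruning (chr2R:23978801-23985177, plus strand), stood at 4726, 2326 and 2283 at 12 h in A, B and C and at 2897, 173 and 969 at 18 h. The 12 h level was even in B and C, 18 h B was the lowest library, and 18 h A stayed above both 12 h B and 12 h C, so the groups overlapped. The log2 change of Sox14 was -2.49 ± 0.53 in B and C (SE; adjusted p = 0.0396 by limma) and -0.71 in A. Without 18 h B it was -1.25, and Sox14 was called under 5 of 16 alternatives to this fit. Broad (br), an early ecdysone gene for zinc-finger factors (chrX:1575132-1664869, plus strand), stood at 1359, 1901 and 2250.5 at 12 h and at 1262, 764 and 559 at 18 h. All 18 h libraries of br lay below all of 12 h, but the difference in A was -0.11, against -1.66 ± 0.34 in B and C (adjusted p = 0.0305). The zinc-finger gene jim had 24824, 35558 and 32705 at 12 h and 22326, 13785 and 16654 at 18 h, without overlap, and a change of -1.17 ± 0.18 in B and C against -0.15 in A (adjusted p = 0.00674). At 24 h, jim stood at 28965, 22308 and 19835, above the 18 h values of B and C in every letter. Sox14 at 24 h was 1148, 845 and 1209 and br 837, 589 and 715, so neither returned to its 12 h level.

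**Figure D4:**
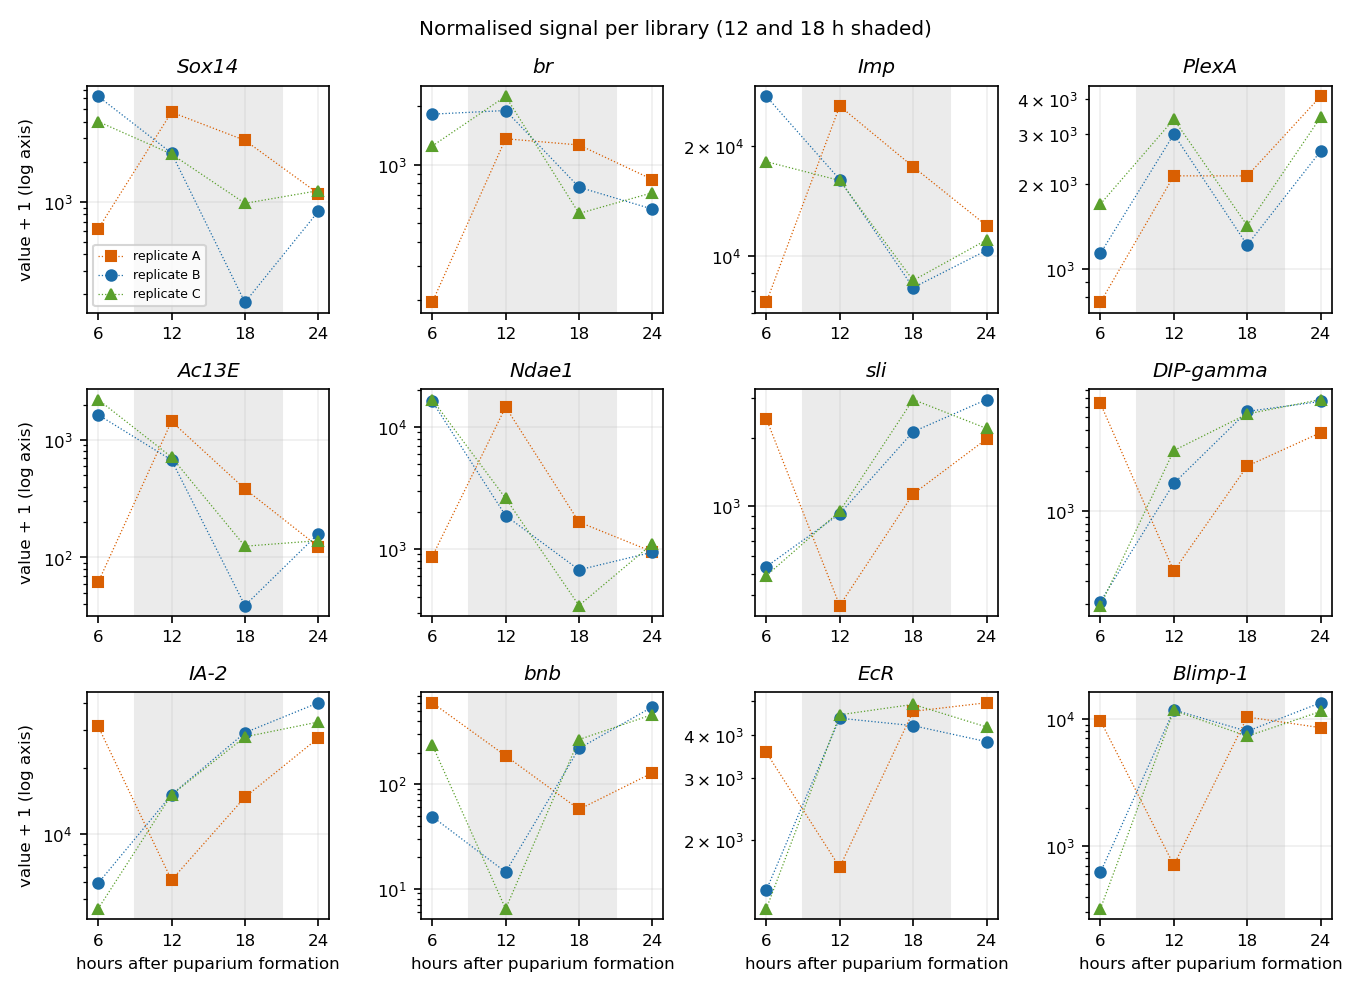
Normalised signal + 1 (log axis) of 12 genes in every library against hours after puparium formation, with replicate A as squares, B as circles and C as triangles; dotted lines join libraries of 1 letter, and 12 and 18 h are shaded. Sox14, Imp and Ndae1 fall from 12 to 18 h in every letter, while bnb, EcR and Blimp-1 move differently in A than in B and C.

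Some lower calls encode RNA-binding or translation proteins, chosen here by their known roles. Imp, whose protein binds mRNAs and marks early-born neuronal fates (chrX:10787869-10824277, minus strand), stood at 25797, 16219.5 and 16120.3 at 12 h and 17585, 8189.9 and 8572 at 18 h. In B and C its change was -0.95 ± 0.20 (adjusted p = 0.0381), and 18 h A was above 12 h B and C, so the groups overlapped. The gene aret, also called bru1, encodes a regulator of splicing and translation and changed by -1.25 ± 0.23, from 7390.0, 5699 and 4787 to 5100.0, 1932 and 2493. The translation factor gene eIF-5A was at 1635, 2025 and 2877 and then 694, 430.4 and 638, with no overlap and log2 changes of -1.24, -2.23 and -2.17. At 24 h eIF-5A stood at 4623, 1968 and 2927, close to or above the 12 h library of the same letter. RpL15, a large-subunit ribosomal protein gene, changed by -1.57 ± 0.33 in B and C and by 0.17 in A. CG13298, the splicing factor gene Sf3b6 in the annotation, changed by -1.58 ± 0.28 (-0.98 without 18 h B) with -1.31, -2.16 and -1.005 in the letters.

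Signalling enzymes and adaptors were also among the lower calls. Ac13E, an adenylyl cyclase gene (chrX:15510877-15554278, minus strand), stood at 1435, 673 and 712 at 12 h and 382, 38.0 and 124 at 18 h, with no overlap. Its change was -3.31 ± 0.60 in B and C (adjusted p = 0.0168) and -1.91 in A, and 18 h B held the fewest reads of all. Crk, an SH2 and SH3 adaptor gene, was even in B and C at 12 h (773 and 939) and low at 18 h (156 and 14.8). In A, Crk was low at both times (93.2 and 139), so A gave 0.57 against -4.10 ± 0.80 in B and C, or -2.44 without 18 h C. CkIIalpha, the catalytic subunit gene of casein kinase 2, was lower in every letter (-1.03, -2.27 and -2.52), from 363, 1044 and 599 to 178, 215 and 103.9. At 24 h CkIIalpha was back at 913, 997 and 1100.4. The diacylglycerol kinase gene rdgA moved by -1.55 ± 0.27 in B and C and -0.27 in A, the cyclic nucleotide-gated channel gene Cngl by -0.95 ± 0.20 and -0.34. X11Lbeta, an adaptor gene of the amyloid precursor protein pathway, went from 60721, 39021 and 39553 to 42851, 16240.5 and 17336, a change of -1.23 ± 0.17 in B and C (adjusted p = 0.00387), although 18 h A stayed above 12 h B and C. Nca, which encodes the calcium sensor neurocalcin, and CG7646 lie together on the same strand with nearly the same reads and count as 1 signal, at -1.52 ± 0.26 for Nca.

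Membrane and adhesion genes moved in both directions. Ndae1, the sodium-driven anion exchanger gene (chr2L:7223328-7249343, minus strand), stood at 14567, 1871 and 2596 at 12 h and 1657, 671 and 341 at 18 h, without overlap. Its change was -2.20 ± 0.31 in B and C (adjusted p = 0.00446), and 12 h A was close to the 6 h values of B and C (16188 and 16779). PlexA, a receptor gene for semaphorin guidance cues (chr4:1009895-1027101, minus strand), stood at 2135, 2995 and 3384 and then 2134, 1215 and 1425. PlexA was level in A, while B and C changed by -1.27 ± 0.28 (adjusted p = 0.046), and at 24 h its values were 4077, 2610.5 and 3439. Fas1, a homophilic adhesion gene, fell from 27405, 16293 and 14361 to 13804, 5949 and 9348 with no overlap and by -0.99, -1.45 and -0.62 in the letters. The gap junction gene Inx2 changed by -1.29 ± 0.23 in B and C, alpha-Cat, which encodes the catenin that ties cadherins to actin, by -1.54 ± 0.34. The nicotinic receptor subunit gene nAChRalpha6 changed by -0.88 ± 0.19 and the Unc13 family gene unc-13-4A by -2.20 ± 0.33. Unc-13-4A stood at 7230.1, 970.4 and 949.8 at 12 h and 1097, 274 and 158 at 18 h, with 18 h A above 12 h B and C.

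The 7 higher calls included a guidance ligand and an immunoglobulin surface protein. Slit (sli), the secreted ligand of Robo receptors (chr2R:15869495-15922118, minus strand), stood at 359.7, 920.2 and 944 at 12 h and 1128, 2131 and 2963 at 18 h, with every 18 h library above every 12 h library. The change of sli was 1.65, 1.21 and 1.65 in A, B and C and 1.43 ± 0.31 in the fit of B and C (adjusted p = 0.04). DIP-gamma, an immunoglobulin partner of Dpr proteins (chr3R:28925004-28970372, minus strand), stood at 353, 1603 and 2823 and then 2159.7, 5540.1 and 5302. All letters of DIP-gamma went up, by 2.61, 1.79 and 0.91, yet 18 h A lay between 12 h B and 12 h C. IA-2, a receptor phosphatase-like protein gene of dense-core vesicles, stood at 6108, 15119 and 15100.3 and then 14723, 29215 and 27951, a change of 0.92 ± 0.18 in B and C and 1.27 in A. In IA-2 the 18 h A value was just below 12 h B and C, so the groups overlapped. The transporter gene blot and the noncoding gene noe lie on the same strand and differed by at most 51 reads per library, so they count as 1 signal, at 0.91 ± 0.18 for blot, or 0.61 without 18 h C. Blot was also the most strongly read of the called genes, at 35318, 64871 and 74509 and then 71942, 105797 and 161237. CG1504 stood at 20.0, 723 and 739 and then 538, 2097 and 2354, with 12 h A about 6 reads. The gene bnb went against the other letters in A, at 186, 13.4 and 5.4 and then 56.4, 219 and 267. Its 12 h values were 4 reads in B and 1 in C, so the fitted change of 4.66 in B and C depends on the pseudocount.

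The other 12 lower calls were less often of known role. The noncoding gene CR43283, called cherub in the annotation and known from neural stem cells, stood at 2338, 3463 and 3557 and then 2142, 1004 and 1029. It did not overlap between times but A hardly changed (-0.13). Hsromega, the noncoding stress RNA gene, was lower at 18 h in every letter (-0.73, -1.27 and -1.12) and at 3603, 5696 and 5131 at 24 h. CR44894, a noncoding gene, overlaps other genes on both strands, so its reads cannot be told apart from theirs without a stated strand setting. CG10713 had the lowest adjusted p of the fit (0.000233), with 27645, 5555 and 4582 at 12 h and 5165, 882 and 1192 at 18 h. It kept its call under all 16 alternatives to the fit of B and C. The other calls were kept less often, with a median of 11 over the 42 and a lowest of 5 for Sox14 and bnb. In B and C, CG10713 was at 38034 and 37145 at 6 h and 351 and 378 at 24 h, so its level was lower at each later time. The glutathione transferase gene GstZ2 changed by -1.99 ± 0.40 in B and C and by 0.23 in A, the AAA ATPase gene pch2 by -1.27 ± 0.26 and -0.76. CG3014, CG32432, CG9003, CG8910 and CG14024 were lower in every letter, with changes in B and C from -1.99 for CG3014 to -1.13 for CG14024. CG34356, named bma in the annotation, went the other way in A (1.83, against -1.34 ± 0.28 in B and C).

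Levels at 6 and 24 h in B and C are given as a description, since the genes were chosen by the 12 h libraries that both comparisons share. Of the 35 lower genes, 22 were lower at 12 h than at 6 h, and 30 were lower at 24 h than at 12 h. All 7 higher genes were higher at 24 h than at 12 h, and 6 of them were lower at 6 h than at 12 h. The other lower genes were Crk, CkIIalpha, eIF-5A, RpL15, alpha-Cat, Nca, CG7646, PlexA, Hsromega, jim, br, CR43283 and CG34356, whose mean in B and C was lower at 6 h than at 12 h. By 24 h CkIIalpha, alpha-Cat, Nca, CG7646 and nAChRalpha6 were above their 12 h mean in B and C.

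EcR was level between 12 and 18 h in B and C and low in 12 h A, and Blimp-1 was likewise low in 12 h A. EcR, the ecdysone receptor gene (chr2R:6087873-6169087, minus strand), stood at 1665, 4464 and 4566 at 12 h and 4671, 4249 and 4892 at 18 h. Only 12 h A was low, near the 6 h values of B and C (1431 and 1265), and the change was 1.49 in A and 0.01 ± 0.22 in B and C. Usp, the receptor partner gene, stood at 1685, 2055 and 1873 and then 1652, 983 and 1286, without overlap and with -0.80 in B and C (adjusted p = 0.322). Eip75B, an ecdysone-induced nuclear receptor gene and heme sensor, stood at 47094, 60742 and 62457 and then 57184, 46869 and 50902. Blimp-1, a repressor that times ftz-f1, differed in direction between A and the others. It stood at 706, 11729 and 11609 at 12 h and 10308, 7962 and 7286 at 18 h, a step of 3.87 in A and -0.62 ± 0.26 in B and C (adjusted p = 0.441). Ftz-f1, a competence factor gene of the prepupa, was below the filter, with 7, 2 and 5 reads at 12 h and 33, 0 and 23 at 18 h. Eip93F, an ecdysone-induced factor gene, went by 1.58, -0.62 and 0.00, and Hr39, a nuclear receptor gene, by -0.29, -0.35 and 0.69. Kr-h1, the juvenile hormone response gene, was lower in every letter (-3.31, -1.88 and -1.02) from 2628, 80.3 and 151 to 265, 21.1 and 74.2, but 18 h A stood above 12 h B and C. Of the ecdysone list, 22 of 34 genes were members. None was higher at 18 h without overlap and 3 (13.6%) were lower (usp, br and Hr46), beside 7.93% and 5.73% of all genes. In B and C 2 (9.09%) were called lower (Sox14 and br), beside 0.542% of all genes. The median log2 change was -0.54 over all libraries and -0.59 in B and C, beside 0.04 and -0.00 over all genes, and it was -0.27 with only genes of at least 200.

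TGF-β genes and pruning effectors gave counts near the share of all genes. No gene of the 11 measured TGF-β genes was called or free of overlap, where 13.7% of all genes were free of overlap, and their median was -0.03. The receptor genes babo (1312, 1379 and 1700.0, then 1045, 1291 and 1316) and wit (1006, 1074 and 1279, then 1427, 1291 and 678) had changes of -0.23 ± 0.29 and -0.33 ± 0.37 in B and C. Put, the type II receptor gene, went by -1.62, -0.21 and 1.16 in the letters, and Smox, the signal transducer gene, was at 12992, 12080.1 and 11247 and then 15200.3, 11907 and 11698. Plum, an immunoglobulin protein gene that facilitates TGF-β signalling in pruning, stood at 1742, 1586 and 2283 and then 2099, 3785 and 2829. Plum was higher in every letter but with overlap, by 0.78 ± 0.27 in B and C (adjusted p = 0.293). Among 40 measured pruning effectors 2 were higher (5.0%) and 3 lower (7.5%) without overlap, beside 7.93% and 5.73% of all genes, with a median of -0.06, and Sox14 was the 1 call. The 3 lower were Cul1 and Dronc, a ubiquitin ligase scaffold and an initiator caspase gene, and Nrg, the neuroglian adhesion gene. Nrg stood at 6391, 7255 and 7302 and then 5586, 5131 and 5673, Dronc at 876, 612 and 523 and then 359.9, 494 and 183. Mical, an actin-oxidising effector gene below Sox14, stood at 1842, 1054 and 1716 and then 1353, 1135 and 1123, a change of -0.25 ± 0.30 in B and C. Hr51 itself, the gene targeted in all libraries, stood at 5045, 3741 and 3794 at 12 h and 5373, 4325 and 2661 at 18 h, a change of -0.07 ± 0.26 over all libraries. Without a control genotype these values do not check the knockdown.

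Among the dpr, DIP, beat and side families DIP-gamma alone was called, in B and C. That is 1 of 7 measured DIP genes (14.3%), beside 0.108% of all genes called higher. In A, B and C, 16, 15 and 13 of 21 dpr genes, 5, 5 and 5 of 7 DIP genes and 13, 13 and 11 of 20 beat and side genes had a positive change. Over all genes these shares were 56.7%, 51.2% and 48.1%, against 76.2%, 71.4% and 61.9% for dpr genes and 65.0%, 65.0% and 55.0% for beat and side genes. For DIP genes the share was 71.4% in each letter. Of 11 DIP genes 7 were measured, and 1 (DIP-delta; 14.3%) was higher without overlap and none lower, beside 7.93% and 5.73% of all genes. The median log2 change of the DIP family was 1.77 over all libraries. Without 12 h A that median was 0.60 and without 18 h B 1.17, and it was 0.64 in B and C. DIP-delta, the partner of Dpr12 (chr3L:5424109-5442399, plus strand), was higher in every 18 h library (885, 1696 and 1474) than in any of 12 h (157, 566 and 615). Its change was 1.42 ± 0.60 in B and C (adjusted p = 0.428). Dpr12 (chr2R:5804712-5860831, plus strand) stood at 709, 616 and 858 and then 477, 916 and 589, with -0.57, 0.57 and -0.54 in the letters and no common direction. Of 21 dpr genes 3 were higher without overlap (dpr3, dpr6 and dpr16; 14.3%) and none lower, beside 7.93% and 5.73% of all genes, with a median of 0.60, or 0.17 without 12 h A and 0.31 by edgeR. Dpr3 passed the filter only through its 18 h libraries, so its lack of overlap was set by the filter. Without 12 h B the dpr median was 0.38, and without 18 h A 0.37. Dpr16 stood at 253, 649 and 437 and then 811, 1283 and 1721, dpr6 at 2091, 3634 and 3902 and then 4228, 4823 and 5104. In the Beat and Side families 20 of 22 genes were measured. Of these 20, 2 were higher without overlap (beat-Va and CG12950) and none lower, beside 7.93% and 5.73% of all genes. With so few genes these counts were near the shares of all genes. The median of these families was 0.74 over all libraries (0.42 in B and C). Beat-Ic went from 79.9, 5993 and 4868 to 4883, 7076 and 9239.5, where 12 h A alone was low. Of 40 axon guidance genes 3 were higher without overlap (sli, Fas3 and ckn) (7.5%) and 5 lower (PlexA, Fas1, CadN, Lar and Ptp99A; 12.5%), beside the same shares of all genes, with a median of -0.25, or -0.12 without 12 h A. Fas3, a homophilic adhesion gene, stood at 299.7, 769.6 and 389 and then 1266, 1523 and 1182, and the N-cadherin gene CadN at 16585, 10414 and 12186 and then 8214, 8304 and 7286. Fas2, the adhesion gene that marks mushroom body axons, stood at 9352, 11234 and 12509.8 and then 11106, 11966 and 10303, with the groups overlapping.

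**Figure D5:**
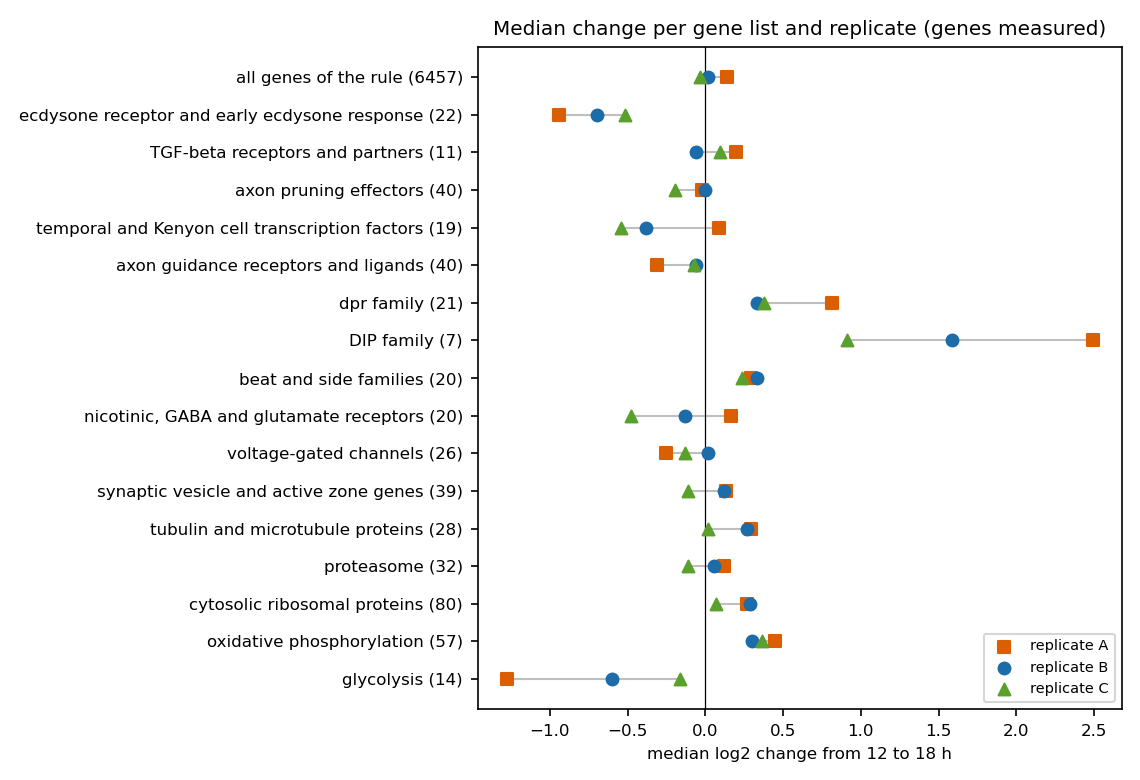
Median log2 change from 12 to 18 h (x axis) of each gene list (y axis, number of genes measured in brackets) in replicate A (squares), B (circles) and C (triangles). The DIP, dpr, beat and side, tubulin, oxidative phosphorylation and ribosomal medians lie above 0 in all 3 replicates. The ecdysone, glycolysis, axon guidance and pruning effector medians lie below 0 in all 3, some of them only just. Replicate A is farthest from 0 for DIP, dpr, tubulin, oxidative phosphorylation, ecdysone, glycolysis and axon guidance.

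More genes of respiration and of the ribosome than of all genes were higher at 18 h without overlap. For oxidative phosphorylation 15 of 57 genes (26.3%) were higher at 18 h without overlap and none lower, beside 7.93% and 5.73% of all genes, with a median of 0.36. None was called in B and C, where the median was 0.32, and without 12 h A it was 0.24. Their summed share of reads was 1.001%, 1.46% and 1.46% at 12 h and 1.49%, 1.72% and 1.82% at 18 h, apart at all libraries, with 18 h A only just above 12 h C. SesB, the mitochondrial ADP/ATP carrier gene, stood at 2321, 5240.3 and 4814 and then 5521, 8397 and 8745, and UQCR-Q, a complex III subunit gene, at 533, 769.6 and 977 and then 1162, 1354 and 1608. ATPsynbeta, the catalytic subunit gene of ATP synthase, went the other way in B and C (0.64, -1.11 and -0.54). Of 80 cytosolic ribosomal protein genes 20 (25.0%) were higher without overlap and 1, RpL41, lower, with a median of 0.23 (0.15 without 12 h A). In C the ribosomal median was 0.07, with 48 of 80 genes positive. Their summed share was 7.62%, 8.35% and 9.61% at 12 h and 9.13%, 10.01% and 10.05% at 18 h, and 18 h A lay below 12 h C, so the groups overlapped. RpL23 stood at 7107, 7804 and 7372 and then 9506, 12156 and 11243. RpL15 was called lower in B and C, and RpL41 stood at 549.5, 1175 and 879.7 and then 204, 426 and 469.9. Glycolysis had a median of -0.68 over 14 genes, but -0.31 without 12 h A. Without overlap 1 gene was higher and 1 lower (7.14% each), near the 7.93% and 5.73% of all genes. That lower gene was Pfk, phosphofructokinase, at 203, 184 and 269.8 and then 43.4, 16.9 and 49.5. Pfk passed the filter only through its 12 h libraries, so its lack of overlap was set by the filter. In 12 of the 14 genes 12 h A was the highest of the 6 libraries, as for Eno (enolase) at 11010.0, 4374 and 4571 and then 4479.8, 5464 and 5748.

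Among Kenyon cell factors and genes of neuronal signalling, counts are to be read beside the 7.93% of all genes that were higher and the 5.73% that were lower without overlap. Of 19 temporal and Kenyon cell transcription factor genes none was higher and 3 (15.8%) were lower without overlap (br, jim and toy), with a median of -0.16. Chinmo, a temporal fate gene, stood at 6338, 8071 and 9952 and then 6783, 5658 and 5109, a difference of -0.74 ± 0.22 in B and C (adjusted p = 0.187) and 0.10 in A. Among 26 voltage-gated channel genes 1 was higher (3.85%) and 2 lower (7.69%) without overlap, the calcium channel gene cac (4396, 5929.6 and 5095, then 3161, 3228 and 3734) and the potassium channel gene SK (8266, 7094 and 8014, then 5989, 4890.3 and 5639). Ca-alpha1T, the T-type calcium channel gene, stood at 157, 1395 and 1700.0 and then 1661, 5603 and 5896, with 18 h A just below 12 h C. Of 39 synaptic genes 5 were higher (12.8%) and 3 lower (7.69%) without overlap, among them Rop, a syntaxin-binding gene, at 436, 445 and 356 and then 802, 916 and 668. Sap47 and dlg1 were 2 of the lower ones, at 8612, 7753 and 8160.0 and then 6531, 5114 and 6054 for Sap47. Of 32 proteasome genes 1 was higher (3.12%) and none lower, with a median of 0.01.

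Genes with a mean of at least 200 on which A opposed both B and C are given here. Of these, 5 went up by at least 1 in A and down by at least 1 in both B and C, and 5 the other way. How many genes at this level moved by at least 1 together in B and C was not counted. Over all members, A opposed B and C in 100 of 467 such genes (21.4%). Cbt, the zinc-finger gene cabut, stood at 89.9, 378 and 318 at 12 h and 312, 46.4 and 114 at 18 h. CG33143, CG7456 (Cog4, a Golgi tethering gene), CG32243 and the kinase gene Dyrk3 had the same pattern. Dyrk3 was at 286, 529 and 842 and then 651, 139 and 326. The opposite pattern was held by Ced-12, an engulfment gene, at 556, 371 and 416 and then 260.2, 810.1 and 856, and by CG42594, the DNA repair gene Xpac, CG12107 and CG12264 (Nfs1, of iron-sulphur cluster assembly). Xpac stood at 289.7, 281 and 162 and then 43.4, 641 and 371. None of the 10 was called in B and C.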

How the data were processed

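Per the labels' protocols, RNA of sorted cells was made into MARS-seq libraries, a 3′-end method with linear amplification. Tools listed in the submitters' processing notes are bcl2fastq, HISAT 0.1.5 and HOMER, whose roles are not stated there. The treatment of strand, overlapping genes, multiply mapped reads and molecular identifiers is not known from the labels or headers. Per the file headers, the deposited table holds a normalised signal per gene, in which the authors scaled reads to 10000000 per library. All values (100%) were whole multiples of 1 read within 0.02 reads, and reads were recovered from them. Symbols were matched to the BDGP6 (dm6) annotation (99.2%), and table coordinates, given counted from 1, were identical for 96%.

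Values were tested as log2(value + 1) by limma-trend (limma 3.58.1, R 4.3.3), with a mean for each time, in all 12 libraries or in the 8 of B and C. Benjamini-Hochberg adjustment covered the 6457 genes, and genes were called under 0.05. Differences are on this log2 scale. Changes of genes at or near 0 in a library depend on the pseudocount of 1, which is below the worth of 1 read (3.3 to 5.4 units). They can be very large, as for CG13245, with 10.24 in A from a value of 0. The scripts were tested on simulated data. EdgeR 4.0.16 and DESeq2 1.42.0 on recovered reads, another pseudocount, filters, median-ratio scaling, the replicate letter and left-out libraries were alternatives.

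Named genes were all calls in B and C, the 12 largest differences per direction among genes without overlap with a log2 difference of at least 1 and a mean of at least 200, up to 8 per direction in which A opposed B and C, 20 fixed genes, and up to 4 members per described list. Other genes that carry a list's count were chosen after their values were seen. The members, the lists and the fit without A were chosen with earlier results of these data known. Promoter sequences were not used here.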

Additional observations from a re-analysis of the deposited data

How the results depend on the processing

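Over all libraries the count of 0 calls also came from another pseudocount (10), no filter, a filter at 200, median-ratio scaling, edgeR and the libraries of 12 and 18 h only. DESeq2 gave 6, and leaving out libraries gave 0 to 1. A model with the replicate block gave 0. An alternative chosen after seeing the data, the replicate block with the libraries of 12 and 18 h only, gave 59 calls (22 higher, 37 lower). Whether a letter links its libraries across times beyond the name is not in the labels and was not tested. Changes given per letter pair libraries by that letter alone. Deviations from the time means correlated across genes between 12 and 18 h at 0.05 for A, 0.07 for B and 0.00 for C.

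In B and C the 42 calls became 2 with no filter, 126 with DESeq2 (40 of the 42 kept) and 75 with 12 and 18 h only (40 kept), and 1 to 52 when a library was left out. With the replicate block there were 48. Genes without overlap, 512 higher and 370 lower, became 720.0 to 994 and 563 to 819 when a library was left out, because fewer libraries overlap less often. With genes of at least 200, the change in A correlated at 0.22 with B and 0.14 with C. List medians moved for ecdysone genes (-0.27 with genes of at least 200, -0.77 by edgeR and by DESeq2) and the dpr family (0.31 by both). When a library was left out they ranged from 0.24 to 0.45 for oxidative phosphorylation, 0.60 to 2.13 for DIP and 0.17 to 0.56 for dpr.

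Changes near 0 reversed. Fas2 was -0.032 with median-ratio scaling, -0.0372 by edgeR, -0.0387 by DESeq2, and -0.0943 to 0.116 when a library was left out. Hr39 was -0.0349, -0.048 and -0.0501, and -0.19 to 0.15. Leave-one-out ranges also crossed 0 for Eip93F (-0.22 to 0.68), Hr51 (-0.29 to 0.22), Smox (-0.0342 to 0.155), dpr12 (-0.444 to 0.026), put (-0.60 to 0.21) and wit (-0.25 to 0.28). Called genes in B and C never reversed under these alternatives. Causes were not tested. Median-ratio scaling moved the median of all genes by under 0.1. Depth limits genes near the value of 50, which stands for 9.26 to 15 reads. The description of promoter motifs was not run.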
